A study of Homo sapiens with 32 samples.

Results

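The 10 genes described here, NDUFA4L2, VEGFA, BNIP3, ANKRD37, EGLN3, STC1, SLC16A3, ADM, SLC2A1 and PFKFB4, are textbook markers of the cellular response to low oxygen, and they form 10 of the 22610 gene entries of the expression table. They were chosen by their rise with time in vehicle-treated cells and by their course with cannabidiol (CBD), so their values in these comparisons are given as a description, without a test. mRNA was sequenced from SK-N-BE(2) cells, an established human neuroblastoma line, which were plated the evening before treatment and then received either 20 µM CBD, the non-intoxicating cannabinoid of hemp, dissolved in ethanol, or vehicle (0.1% ethanol alone). Each treatment was sampled at 3, 6, 12 and 24 h in 4 samples, which gave 8 groups and 32 samples. The methods say that each treatment was set up 4 times per time point without saying whether the cultures were grown separately beforehand. The p-values therefore rest on the spread between such preparations within groups, pooled over the 8 groups and moderated across genes. They do not measure the spread of the compared groups alone. The labels name no other treatment and no untreated samples at the start, and time after treatment, time in culture and exposure to ethanol cannot be told apart within the vehicle series.

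Hypoxia-inducible factors (HIFs) are transcription factors made of an oxygen-regulated alpha subunit and a constant partner. With oxygen present, prolyl hydroxylases (EGLN enzymes) mark the alpha subunit for destruction by the VHL protein, and with oxygen scarce it accumulates and binds short DNA elements near its target genes. The targets move glucose into the cell, push it through glycolysis, export the lactate, restrain mitochondria and call in blood vessels. Because the alpha subunit is regulated mainly as a protein, its mRNA need not change when its targets do.

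The cells carried the markers of their lineage. The noradrenergic regulators PHOX2A and HAND2 lay at 322 to 513 and 454 to 526 FPKM (fragments per kilobase of transcript, scaled to the mapped reads of the sample), and MYCN, which is amplified in this line, at 1421 to 2452 FPKM. Of 12 markers of other cell types, CD3E (T cells) was at 0 in 27 samples and KRT5 (squamous epithelium) in 31, and the highest level of any was 4.61 FPKM for EPCAM. The summed FPKM of these 12 ranged from 3.98 to 4.62 in vehicle at 3 h and from 7.23 to 7.56 at 24 h, and with CBD from 4.05 to 4.52 and from 7.94 to 8.32. COL1A1, PDGFRA and EPCAM were higher in every sample at 24 h than at 3 h in both treatments, and the part of these markers in the results was not tested. FPKM do not record depth, but the relative depth of the samples, estimated from the smallest steps of rarely detected genes, ranged from 0.794 to 1.20 of the median.

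The short elements that HIF binds hold the letters ACGTG or GCGTG. RefSeq promoter windows (GRCh38.p14, 250 bases before the start of the transcript) were available for 7 of the 10 genes, ADM, ANKRD37, BNIP3, EGLN3, PFKFB4, SLC2A1 and SLC16A3, the last with 5 starts. Both were searched on both strands, and the matches are shown because the genes that hold them followed different courses with CBD. Capitals mark the matches, and each stretch runs 5′ to 3′ along the gene from 30 bases before the first match to 30 bases after the last.
ANKRD37 (chr4:185396649-185396732, plus strand): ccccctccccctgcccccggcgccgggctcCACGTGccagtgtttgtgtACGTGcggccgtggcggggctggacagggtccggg
BNIP3 (chr10:131981993-131982096, minus strand): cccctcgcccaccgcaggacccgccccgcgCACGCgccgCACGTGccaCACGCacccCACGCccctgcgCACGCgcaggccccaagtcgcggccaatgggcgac
SLC16A3, second start (chr17:82228944-82229021, plus strand): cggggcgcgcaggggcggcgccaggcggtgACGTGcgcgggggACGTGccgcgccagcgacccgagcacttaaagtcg
PFKFB4 (chr3:48556935-48556999, minus strand): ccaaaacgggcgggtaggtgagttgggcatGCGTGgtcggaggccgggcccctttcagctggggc
ADM (chr11:10304942-10305006, plus strand): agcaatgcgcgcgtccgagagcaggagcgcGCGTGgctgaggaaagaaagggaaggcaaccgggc

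ACGTG stood in the windows of 3 of these 7 genes, ANKRD37, BNIP3 and SLC16A3, beside 21.7% of all genes with a window. In ANKRD37 the matches began 162, 161 and 143 bases before the start, and the first and second overlap as the palindrome CACGTG. BNIP3 held the same palindrome at 134 and 133 bases and 4 copies of GCGTG on the opposite strand at 143, 125, 116 and 104 bases. At the second start of SLC16A3, 2 copies of ACGTG lay at 68 and 55 bases. Of its other 4 starts, GCGTG stood before the fourth at 216 and 89 bases (opposite strand) and 22 bases, and before the fifth at 165 bases, and these stretches are not printed. PFKFB4 and ADM each held a single GCGTG, at 166 and 101 bases. No match stood in the windows of EGLN3 and SLC2A1, which says only that these letters were not in this stretch. At least 1 of these matches was present in 5 of the 7 genes, beside 47.4% of the 27305 genes with a window and 43.2% of all 35116 windows. ANKRD37 and BNIP3 share the palindrome at similar distances, and they followed different courses with CBD. Whether any protein binds these letters in these cells, or whether they bear on the courses, was not tested.

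In vehicle, 7 of the 10 genes were higher at 24 h than at 3 h in all 4 samples and the other 3 were not. For these 10 genes, a rise or fall is that of the group mean, and groups are called apart where all 4 values of one lie beyond all 4 of the other. At 24 h all 4 vehicle samples lay above all 4 vehicle samples at 3 h for VEGFA, STC1, SLC16A3, PFKFB4, NDUFA4L2, BNIP3 and ANKRD37, while ADM lay below in all 4 and SLC2A1 and EGLN3 overlapped. Of the 12621 genes tested, 29.0% were higher in all 4 samples and 33.1% lower in all 4, and since the genes were chosen on this rise nothing is read from the count. The genes carry the label of hypoxia-inducible markers, and in vehicle 7 of them rose with all 4 samples apart. ADM and EGLN3 fell in their means, and SLC2A1 rose 1.07-fold with overlapping samples. The median change of the 10 genes from 3 to 24 h was 0.71 on the log2(FPKM + 1) scale, beside -0.01 over all genes tested. In bulk RNA, fewer cells expressing a gene and less RNA of it per cell cannot be told apart, in this or any later value.

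With CBD the course of 9 of the 10 genes was flatter or ran downward. At 24 h, 9 genes were lower with CBD than with vehicle in all 4 samples, and ANKRD37 overlapped. The corresponding counts were 2 genes at 3 h (ADM and PFKFB4), 7 at 6 h and 7 at 12 h. Over all genes tested, 4.36%, 11.1%, 16.9% and 25.9% were lower in all 4 CBD samples at 3, 6, 12 and 24 h. The median log2 difference of the 10 genes between CBD and vehicle was -0.05, -0.35, -0.55 and -0.90 at 3, 6, 12 and 24 h, with medians over all genes within 0.01 of 0. These values again belong to what the genes were chosen on.

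**Figure D1:**
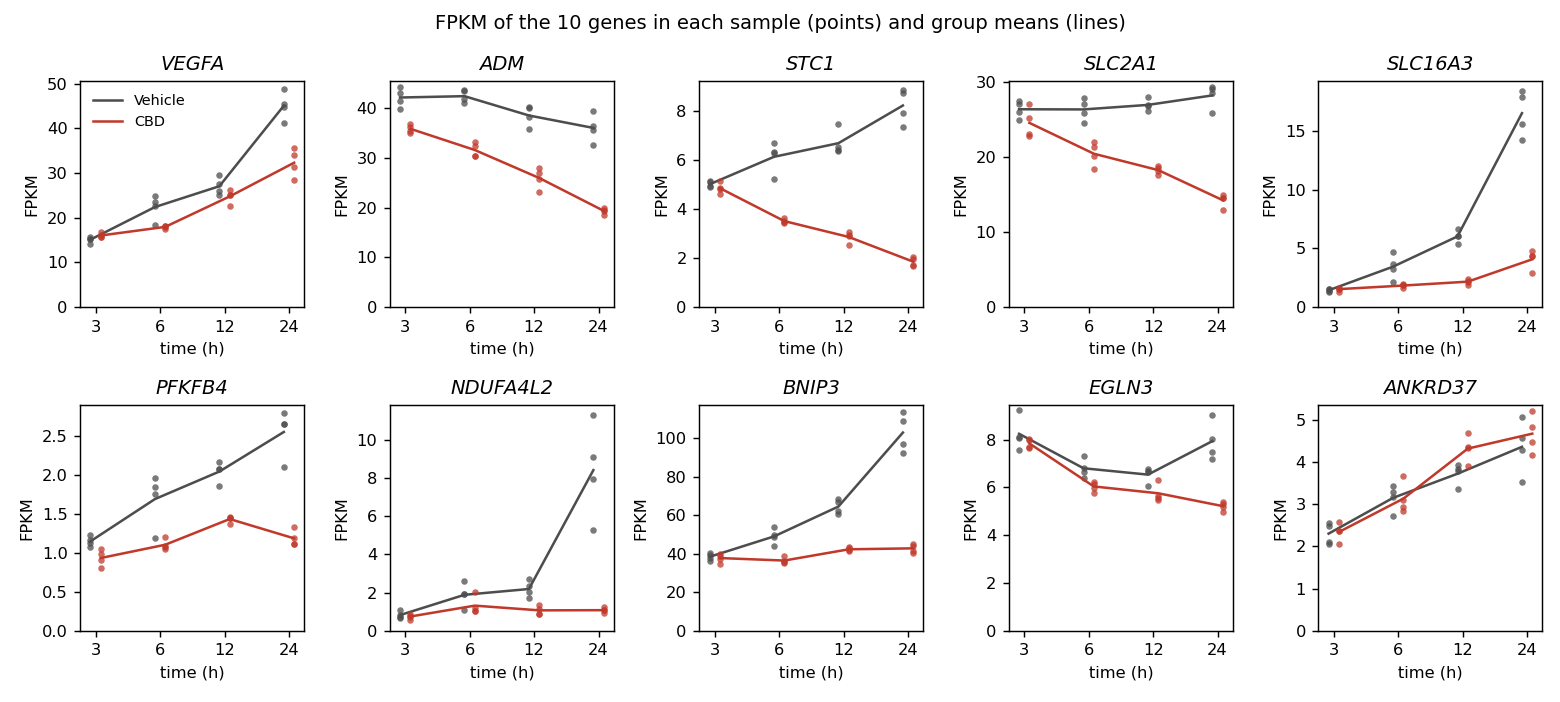
FPKM (linear axis from 0) of each of the 10 genes against time, with 1 point per sample (4 per treatment and time) and lines through the group means, vehicle in grey and CBD in red. BNIP3, SLC16A3, NDUFA4L2 and VEGFA climb in vehicle and stay lower with CBD, and STC1 parts in opposite directions. ADM, SLC2A1 and EGLN3 fall with CBD, while in vehicle their 24 h samples do not all lie above those at 3 h. ANKRD37 climbs in both treatments.

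Among the secreted factors, VEGFA, the growth factor that draws blood vessels toward oxygen-poor tissue, rose in both treatments and less with CBD. The 4 vehicle samples held 14.2, 15.2, 15.2 and 15.8 FPKM at 3 h and 48.9, 45.4, 44.7 and 41.3 at 24 h. With CBD they held 16.7, 15.6, 16.1 and 15.7 at 3 h and 35.6, 31.3, 34.0 and 28.4 at 24 h. The groups overlapped at 3 h and were apart at 24 h, with every vehicle sample above every CBD sample. The mean rose 2.98-fold in vehicle and 2.02-fold with CBD, which in FPKM kept 54.4% of the vehicle rise. At 12 h the treatments overlapped (27.1 ± 1.86 and 24.8 ± 1.53, mean ± SD, n = 4), although they had been apart at 6 h (22.4 ± 2.77 and 18.0 ± 0.336).

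STC1, a secreted glycoprotein hormone of calcium and phosphate handling, went in opposite directions in the 2 treatments. Vehicle samples held 4.93, 5.12, 4.88 and 5.09 FPKM at 3 h and 8.86, 7.93, 8.73 and 7.36 at 24 h. The CBD samples held 4.60, 4.86, 5.13 and 4.82 at 3 h and 2.04, 1.72, 1.67 and 1.98 at 24 h. From similar levels at 3 h, each vehicle sample came to lie above and each CBD sample below its starting group. The means fell at every step with CBD, from 3.51 ± 0.0871 after 6 h to 2.86 ± 0.221 after 12 h. By 24 h the vehicle mean was 4.44-fold that with CBD. The log2 change from 3 to 24 h was 0.62 (SE 0.06) in vehicle and -1.04 (SE 0.06) with CBD.

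ADM, which encodes the vasodilator peptide adrenomedullin, did not rise in either treatment. It had the highest mean of the 10 genes in vehicle at 3 h, in a range that overlapped with BNIP3. Vehicle samples held 44.2, 43.2, 41.5 and 39.8 FPKM at 3 h and 39.5, 36.4, 35.7 and 32.7 at 24 h. CBD samples were already lower at 3 h, with 36.8, 36.2, 35.5 and 35.1, and reached 19.5, 18.6, 20.0 and 19.4 at 24 h. All 4 CBD samples lay below all 4 vehicle samples at every time, which held for none of the other 9 genes. The vehicle mean exceeded the CBD mean 1.18-fold at 3 h, 1.34-fold at 6 h, 1.48-fold at 12 h and 1.86-fold at 24 h.

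Of the genes of transport and glycolytic flux, SLC16A3, which encodes the lactate exporter MCT4, had the largest fold rise of the 10 genes in vehicle. Its 4 vehicle samples held 1.34, 1.58, 1.26 and 1.55 FPKM at 3 h and 18.4, 15.6, 17.9 and 14.2 at 24 h. The CBD samples held 1.56, 1.31, 1.57 and 1.66 at 3 h and 4.32, 2.87, 4.76 and 4.32 at 24 h, every one above its 3 h group and below every vehicle sample at 24 h. The mean rose 11.5-fold in vehicle, by way of 3.44 ± 1.07 (6 h) and 6.02 ± 0.524 (12 h), and 2.66-fold with CBD. On the log2(FPKM + 1) scale, which understates folds of low genes, these changes were 2.84 (SE 0.13) and 0.99 (SE 0.13). The vehicle mean was 1.88-fold, 2.78-fold and 4.06-fold the CBD mean at 6, 12 and 24 h.

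SLC2A1, the glucose transporter GLUT1, stayed level in vehicle and fell with CBD. Vehicle samples held 27.4, 27.0, 26.0 and 24.8 FPKM at 3 h and 29.3, 28.5, 29.0 and 25.9 at 24 h, and the groups overlapped. CBD samples held 27.1, 25.2, 23.1 and 22.7 at 3 h and 14.9, 14.5, 14.6 and 12.9 at 24 h, with all 4 lower at 24 h. The means with CBD at 6 and 12 h were 20.4 ± 1.56 and 18.2 ± 0.508, and the vehicle mean was 1.98-fold the CBD mean at 24 h.

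PFKFB4, which makes the allosteric activator of phosphofructokinase, was expressed at a low level. Vehicle samples held 1.22, 1.07, 1.17 and 1.13 FPKM at 3 h and 2.79, 2.65, 2.64 and 2.10 at 24 h, a 2.22-fold rise of the mean. With CBD the samples held 0.981, 1.04, 0.905 and 0.798 at 3 h. They stood at 1.37, 1.45, 1.44 and 1.46 after 12 h and at 1.32, 1.11, 1.11 and 1.19 after 24 h. The course with CBD peaked at 12 h, and all 4 samples at 24 h lay below all 4 at 12 h.

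For the mitochondrial genes, NDUFA4L2, an inducible relative of a respiratory chain subunit, had the second largest fold rise in vehicle and next to none with CBD. Vehicle samples held 0.824, 0.716, 0.662 and 1.09 FPKM at 3 h and 9.11, 5.29, 11.3 and 7.94 at 24 h. CBD samples held 0.571, 0.790, 0.889 and 0.737 at 3 h and 0.908, 1.07, 1.26 and 1.08 at 24 h. The vehicle groups were far apart despite the wide spread at 24 h, and the CBD groups were barely apart. The mean rose 10.2-fold in vehicle, with 82.0% of the FPKM rise falling between 12 and 24 h, and the CBD rise was 4.38% of that in vehicle. At 24 h the vehicle mean was 7.79-fold the CBD mean, the largest such ratio of the 10 genes, and the log2 difference was -2.14 (SE 0.16).

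BNIP3, a mitochondrial outer membrane protein of mitophagy and cell death, reached the highest level of the 10 genes. Vehicle samples held 37.9, 39.1, 36.1 and 40.4 FPKM at 3 h and 113, 97.2, 109 and 92.3 at 24 h, a 2.68-fold rise. CBD samples held 34.7, 37.3, 39.0 and 40.0 at 3 h and 41.4, 40.6, 43.9 and 45.2 at 24 h. The samples of the treatments were intermingled at 3 h and fully apart from 6 h on, with group means of 49.0 ± 4.12 and 36.5 ± 1.75 at 6 h and 64.5 ± 3.77 and 42.3 ± 0.952 at 12 h. With CBD the rise was 7.83% of that in vehicle. Of the 50-base words in BNIP3 transcripts, 12.9% also occur in transcripts of other genes, against at most 3.96% for the rest of the 10 genes. In this respect its level is less certain than theirs, and other sources of error were not compared.

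In the last pair, EGLN3, the prolyl hydroxylase that HIF itself induces, dipped and recovered in vehicle. Vehicle samples held 9.24, 8.09, 7.56 and 8.07 FPKM at 3 h and 9.03, 7.47, 8.04 and 7.21 at 24 h, with means of 6.80 ± 0.379 at 6 h and 6.53 ± 0.334 at 12 h. CBD samples held 7.67, 8.02, 7.69 and 7.98 at 3 h and 5.30, 5.20, 4.97 and 5.39 at 24 h. The dip at 6 h occurred in both treatments. The treatments were apart at 6 and 24 h and overlapped at 12 h, and from 12 to 24 h the mean rose 1.21-fold in vehicle and went to 0.907 of its 12 h level with CBD.

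ANKRD37, an ankyrin repeat protein of little known function, was the exception among the 7 genes that rose in vehicle with all samples apart. Vehicle samples held 2.49, 2.05, 2.56 and 2.10 FPKM at 3 h and 5.07, 4.56, 4.28 and 3.52 at 24 h. CBD samples held 2.06, 2.58, 2.36 and 2.36 at 3 h and 4.17, 4.83, 4.47 and 5.19 at 24 h. The treatments overlapped at all 4 times, and the rise of the mean was 1.89-fold in vehicle and 2.00-fold with CBD. The CBD minus vehicle difference in the log2 change was 0.07 (SE 0.11), while for the other 9 genes it ran from -2.08 for NDUFA4L2 to -0.46 for EGLN3.

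**Figure D2:**
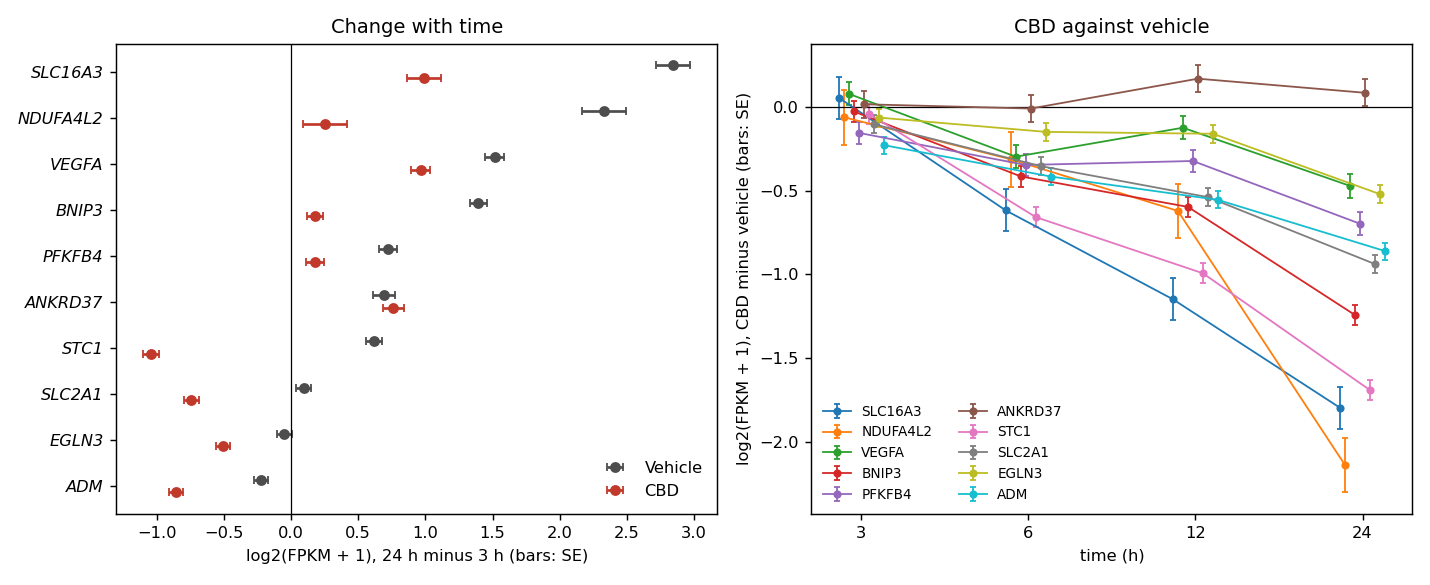
Left, change of log2(FPKM + 1) from 3 to 24 h of each gene in vehicle (grey) and with CBD (red). Right, CBD minus vehicle at each time, with bars for the standard error of the fit (n = 4 per group). The CBD points lie to the left of the vehicle points for 9 genes and to the right for ANKRD37 (0.76 against 0.69), and on the right panel NDUFA4L2, SLC16A3 and STC1 end lowest, at -2.14, -1.80 and -1.69.

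Levels may be compared between genes on the FPKM scale, which is per transcript length. In vehicle at 3 h the order of mean FPKM was ADM (42.2), BNIP3 (38.4), SLC2A1 (26.3), VEGFA (15.1), EGLN3 (8.24), STC1 (5.01), ANKRD37 (2.30), SLC16A3 (1.43), PFKFB4 (1.15) and NDUFA4L2 (0.823). The ranges of ADM and BNIP3 overlapped, as did those of PFKFB4 and NDUFA4L2. At 24 h in vehicle BNIP3 (103) came first, before VEGFA (45.1), ADM (36.0), SLC2A1 (28.2) and SLC16A3 (16.5). NDUFA4L2 (8.41), STC1 (8.22) and EGLN3 (7.94) overlapped in their ranges, and ANKRD37 (4.36) and PFKFB4 (2.55) were last.

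On the hg19 build (positions of GENCODE version 44 on GRCh37) the genes lie on 10 different chromosomes: SLC2A1 at chr1:43391024-43424564, PFKFB4 at chr3:48555117-48599448, ANKRD37 at chr4:186317175-186321782, VEGFA at chr6:43737921-43754224, STC1 at chr8:23699442-23712319, BNIP3 at chr10:133781188-133795471, ADM at chr11:10326620-10328944, NDUFA4L2 at chr12:57628686-57634498, EGLN3 at chr14:34393433-34931980 and SLC16A3 at chr17:80175810-80219005. PFKFB4 shares exonic bases with UCN2 on the same strand, so reads in the shared part cannot be assigned to either. The exonic overlaps of SLC16A3 with CSNK1D, NDUFA4L2 with SHMT2 and ANKRD37 with UFSP2 are on opposite strands, as are those of VEGFA and SLC2A1 with unnamed genes. The methods describe stranded reads, and whether the FPKM used the strand is not given in the sources used here.

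Replicates of a group also differed together, a measure that the choice of genes did not use. After removal of the group means, the correlation of log2(FPKM + 1) across the 32 samples was above 0 for 40 of the 45 pairs of the 10 genes, with a median r of 0.35 and a range of -0.21 to 0.71, whereas the median over all pairs of genes tested was 0.01. These points share library and depth, and the correlations are given as a description. STC1 and SLC16A3 (0.71), STC1 and BNIP3 (0.69) and SLC16A3 and BNIP3 (0.69) were the closest pairs. In vehicle 6 h replicate 1, STC1 and SLC16A3 deviated from their group means by -0.19 and -0.48, and in replicate 3 by 0.11 and 0.39. How far the correlations rest on such single samples was not tested.

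In 3 groups, single samples lay at one end of the group for 7 or more of the 10 genes. At 6 h, vehicle replicate 1 was the lowest of its group for 7 of the 10 genes and vehicle replicate 3 the highest for 8, with SLC16A3 at 2.11 FPKM in the former and 4.69 in the latter. At 24 h, vehicle replicate 4 was the lowest for 9 genes and vehicle replicate 1 the highest for 9. In the CBD group at 12 h, replicate 1, which had the lowest relative depth of all samples (0.794), was the lowest for 7 genes and replicate 4 (0.943) the highest for 7, beside 34.5% and 26.0% of all genes tested. Over all genes tested, the 4 vehicle samples were the lowest or highest of their group, in the same order, for 22.9%, 21.9%, 22.3% and 20.6%. Among 39 other HIF targets tested, vehicle 6 h replicate 1 was the lowest for 28 and replicate 3 the highest for 22, and vehicle 24 h replicate 4 was the lowest for 21 and replicate 1 the highest for 23. The relative depths of these vehicle samples were 1.03, 1.11, 1.03 and 0.990, and the part of depth was not tested.
Without vehicle 6 h replicate 1, the ratio of the vehicle mean to the CBD mean at 6 h was 2.12 instead of 1.88 for SLC16A3 and 1.63 instead of 1.43 for NDUFA4L2. Without vehicle 24 h replicate 4, the ratio at 24 h was 4.24 instead of 4.06 for SLC16A3, 2.49 instead of 2.40 for BNIP3 and 0.993 instead of 0.933 for ANKRD37. The CBD minus vehicle difference in the log2 change of ANKRD37, 0.07 with all samples, was -0.01 without vehicle 24 h replicate 4.

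**Figure D3:**
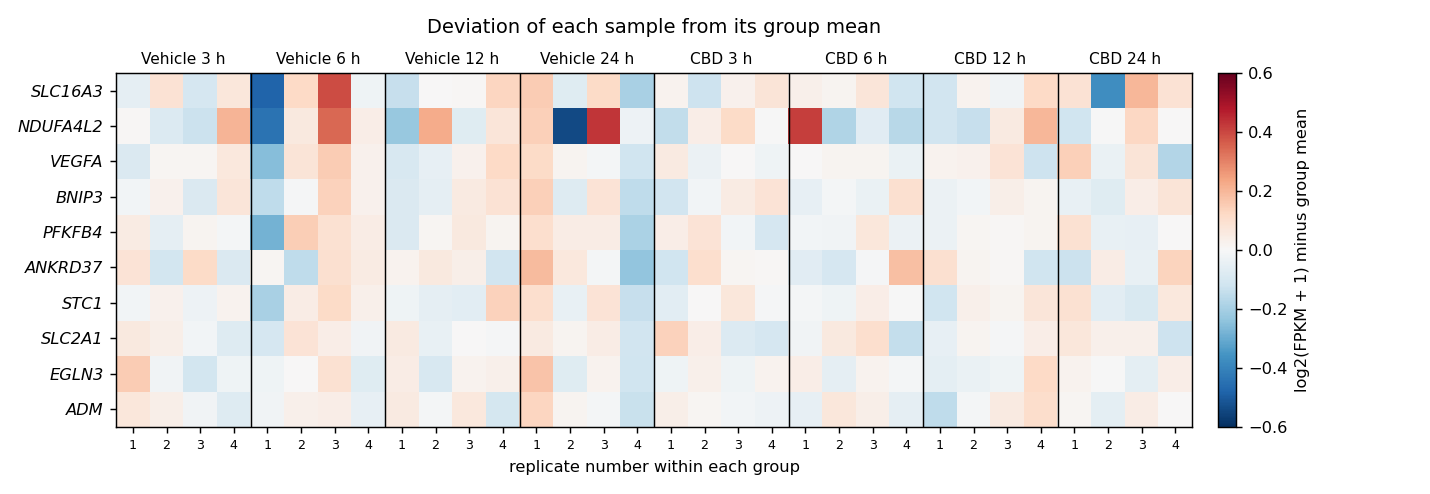
Deviation of each sample from its group mean, log2(FPKM + 1), for the 10 genes (rows) in the 32 samples (columns, grouped by treatment and time and numbered by replicate), blue below and red above the group mean. Blue columns stand out at vehicle 6 h replicate 1 (7 of 10 genes lowest) and vehicle 24 h replicate 4 (9 of 10 lowest), and CBD 12 h replicate 1 is also lowest for 7 of 10, by smaller amounts (median deviation -0.05, against -0.17 and -0.14).

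The mRNAs of the HIF machinery itself changed within a narrow range, from -0.39 to 0.22 on the log2(FPKM + 1) scale between 3 and 24 h in vehicle. Of 12 genes of the HIF pathway, 10 passed the filter on low values (mean of at least 1 FPKM), and EPAS1 and HIF3A, the alternative alpha subunits, did not, with group means of at most 0.304 FPKM. In limma's fit across 12621 genes at an adjusted p under 0.01, 2 of the 10 were higher and 4 lower in vehicle at 24 h than at 3 h, beside 26.6% and 31.1% of all genes called higher and lower. HIF1A, the oxygen-regulated alpha subunit, went from 55.7 ± 2.42 FPKM to 58.8 ± 1.25 (SD, n = 4) in vehicle (log2 difference 0.08, adjusted p = 0.102), although under quantile normalization the difference was 0.16 and passed (adjusted p = 0.00399). With CBD at 24 h it was 52.6 ± 0.346, lower than in vehicle (-0.16, adjusted p = 0.0027), a call lost under quantile normalization (adjusted p = 0.0247, the highest over the alternatives, with 0.000217 the lowest).
EGLN1, the main oxygen sensor of the pathway, rose with time in vehicle (0.22, adjusted p = 3.89e-08) and was lower with CBD at 24 h (-0.38, adjusted p = 3.84e-12). EGLN2 fell in vehicle (-0.27) and differed by -0.15 at 24 h, which did not pass (adjusted p = 0.0147) but did with a replicate block (adjusted p = 0.00572). The partner ARNT rose by 0.13 in vehicle and was higher by 0.12 with CBD at 24 h, while its paralog ARNT2 fell by 0.38 and was lower by 0.20. CITED2, an inhibitor that competes with HIF for its coactivators, was lower with CBD at 24 h (-0.35), and the coactivators EP300 and CREBBP fell in vehicle by 0.24 and 0.39. At 24 h, 8 of the 10 pathway genes were called lower with CBD and ARNT higher, beside 21.3% and 20.8% of all genes tested. Of these, VHL (-0.12), EP300 (-0.14) and CREBBP (-0.13) lost the call when single 24 h samples were left out, and HIF1AN, the asparagine hydroxylase of HIF, differed by -0.14.

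Genes known as HIF targets outside the 10 were taken from a list of 56, of which 39 passed the filter and can be tested. In vehicle, 27 of them rose and 3 fell from 3 to 24 h, with 9 not passing the test. Over all genes tested, 26.6% were called higher and 31.1% lower. The median log2 change of the 39 targets was 0.47. With CBD over the same interval, 25 rose and 5 fell, with a median of 0.23, beside 32.1% and 35.7% of all genes called higher and lower. DDIT4, a stress-induced inhibitor of mTOR, rose from 14.2 to 54.3 FPKM in vehicle (log2 change 1.86, SE 0.15, adjusted p = 3.25e-11). NDRG1, a differentiation-related gene of broad hypoxic induction, rose from 2.95 to 10.6 (1.55, SE 0.08). The falls in vehicle were ENG, a coreceptor of TGF-beta (-0.46), VLDLR, a lipoprotein receptor (-0.33), and TFRC, the transferrin receptor (-0.25), the last named after its values were seen.

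Most of these targets were lower with CBD than with vehicle at 24 h, and a few were higher. Against vehicle, 1 target was lower and 3 were higher at 3 h, 17 lower and 3 higher at 6 h, 22 lower and 3 higher at 12 h, and 23 lower and 6 higher at 24 h. With only the groups of a comparison fitted, those lower at 6 h numbered 4. Over all genes tested, 1.28%, 6.13%, 11.2% and 21.3% were called lower at 3, 6, 12 and 24 h, and 1.18%, 4.07%, 8.85% and 20.8% higher. The median difference of the list was -0.03, -0.11, -0.18 and -0.31 at the 4 times. NDRG1 was at 4.26 FPKM with CBD and 10.6 with vehicle at 24 h (-1.14, SE 0.08, adjusted p = 4.31e-12). LOXL2, which cross-links collagen, was at 8.80 and 18.6 (-1.0, SE 0.04, adjusted p = 1.76e-16), and FAM162A, a mitochondrial protein of hypoxic cell death, at 22.1 and 43.1 (-0.94, SE 0.07, adjusted p = 1.38e-11).
HMOX1, the heme oxygenase that also answers to oxidative stress, was higher with CBD at all 4 times and reached 8.37 FPKM against 1.16 with vehicle at 24 h (2.11, SE 0.07, adjusted p = 2.10e-18). BHLHE41, a clock-related repressor, was at 23.6 and 14.8 (0.64, SE 0.03), and the kinase gene PIM1 at 61.4 and 47.1 (0.37, SE 0.05). DDIT4 rose 3.83-fold in vehicle and 2.50-fold with CBD, where its mean at 3 h was already higher than in vehicle. At 24 h it did not differ in its limma test (-0.11, adjusted p = 0.564).

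The change from 3 to 24 h was compared directly between the treatments by the difference of the 2 changes. Of the 39 targets, 22 were called lower in this difference and 7 higher, with 10 not passing, beside 14.3% and 12.9% of all genes called lower and higher. Its median was -0.29 for the list and -0.01 over all genes. The largest negative differences were those of NDRG1 (-1.16, SE 0.11, adjusted p = 6.21e-09), LOXL2 (-0.97, SE 0.06, adjusted p = 1.56e-12) and FAM162A (-0.93, SE 0.10, adjusted p = 2.61e-08). The largest positive ones were those of HMOX1 (1.66, SE 0.10), BHLHE41 (0.51, SE 0.04) and RORA, a nuclear receptor (0.45, SE 0.08, adjusted p = 0.000107). These comparisons share the vehicle and CBD samples at 24 h and are not independent of each other.
Of the 17 targets that did not pass the filter, CA9 and MIR210HG are named after their values were seen. CA9, the carbonic anhydrase often used as a tissue marker of hypoxia, had mean FPKM of 0.429 and 0.870 in vehicle at 3 and 24 h and of 0.437 and 0.413 with CBD. MIR210HG, the host transcript of a hypoxia-induced microRNA, had 0.228 and 1.73 in vehicle and 0.196 and 0.346 with CBD. Their levels are low, and no test was made.

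Genes of glycolysis and pyruvate use under HIF control also rose in vehicle and were mostly lower with CBD. All 17 passed the filter, and in vehicle 15 rose, LDHA fell and PGAM1 (0.08) did not pass, with a median of 0.25, beside 26.6% of all genes called higher and 31.1% lower. PDK1, PGAM1, PFKM and HK1 are named after their values were seen. ALDOC, the brain aldolase, rose from 23.1 to 81.1 FPKM (1.77, SE 0.04, adjusted p = 7.61e-21), and PDK1, which closes pyruvate off from mitochondria, by 1.35. LDHA, the lactate dehydrogenase subunit that HIF is known to induce, went the other way, from 29.9 to 20.3 FPKM in vehicle (-0.54, SE 0.03, adjusted p = 2.96e-15) and from 29.7 to 15.1 with CBD.
At 24 h, 15 of the 17 were lower with CBD, PFKM was higher (0.13) and HK1 did not pass, beside 21.3% of all genes called lower and 20.8% higher, and the median difference was -0.39. PDK1 (-0.82), HK2, the inducible hexokinase (-0.80), and PGAM1 (-0.72) had the largest differences, and ALDOC, at 66.4 against 81.1 FPKM, had a smaller one (-0.28, SE 0.04, adjusted p = 4.21e-06). In the difference of the changes, 15 were called lower, none higher and 2 (HK1 and PFKM) did not pass in limma, beside 14.3% and 12.9% of all genes called lower and higher, with a median of -0.40. PFKM (0.10) was the single gene of this list with a difference above 0.

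**Figure D4:**
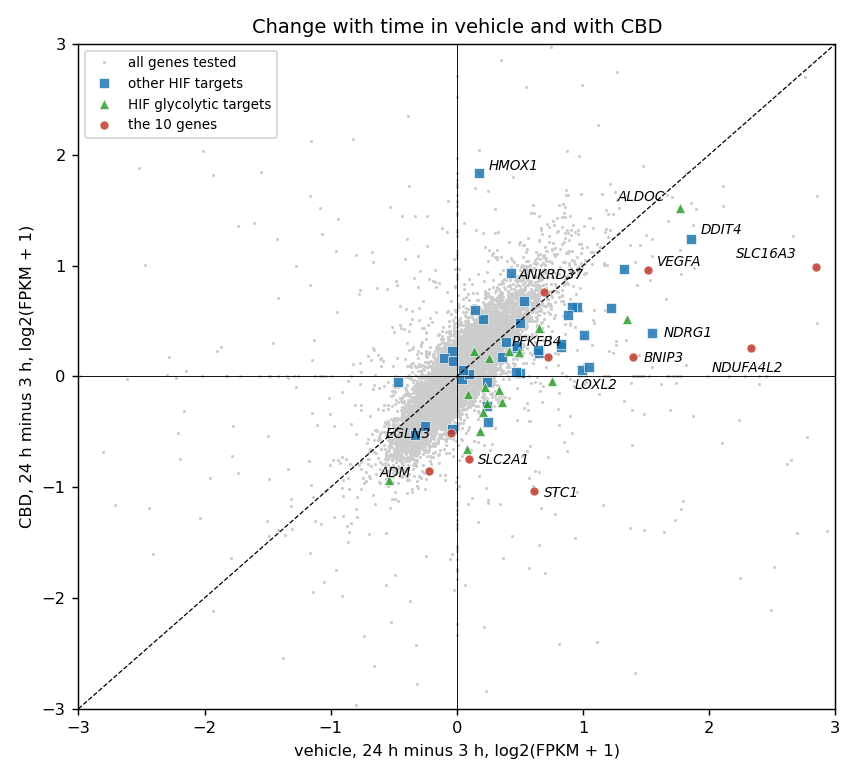
Change of log2(FPKM + 1) from 3 to 24 h in vehicle (horizontal) and with CBD (vertical) for 12587 of the 12621 genes tested (grey, 34 lie outside the axes), 39 other HIF targets (blue squares), 17 glycolytic targets (green triangles) and the 10 genes (red circles). The dashed line marks equal change, and 9 of the 10 genes, NDRG1, LOXL2 and DDIT4 lie below it, while HMOX1 and ANKRD37 lie above it.

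Partners and paralogs of the 10 genes were a mixed group. Of 25, 15 passed the filter, and in vehicle 7 rose and 4 fell over time, while at 24 h 2 were higher and 4 lower with CBD. Over all genes tested, 26.6% rose and 31.1% fell in vehicle, and 20.8% were higher and 21.3% lower with CBD at 24 h. The receptors of VEGFA and adrenomedullin were barely detected in these cells, with group means of at most 0.240 FPKM for FLT1, 0.0297 for KDR and 0.0369 for CALCRL. Of the coreceptors, NRP2 stood at 21.3 to 25.0 FPKM and RAMP1 at 65.7 to 86.5, and RAMP2 differed by 0.16 between CBD and vehicle at 24 h (adjusted p = 0.0316, and 0.00295 with only the 2 groups fitted).
Carriers and paralogs followed several courses. SLC16A1, the lactate carrier MCT1, fell in vehicle (-0.25) and was lower with CBD at 24 h (-0.20), from a level of 75.8 FPKM, and the chaperone of both carriers, BSG, stayed between 342 and 367 FPKM. SLC2A4, the insulin-responsive glucose transporter, rose from 0.792 to 1.81 FPKM in vehicle and from 0.910 to 4.19 with CBD, and the difference of the changes was 0.79 (adjusted p = 1.09e-09). SLC2A8, another glucose transporter, fell by 0.23 in vehicle (adjusted p = 0.0085), a difference that missed the threshold under 14 alternatives (highest adjusted p 0.0515). NDUFA4, the constitutive relative of NDUFA4L2, fell in vehicle by 0.21 and differed by -0.13 at 24 h, which did not pass (adjusted p = 0.0147). PFKFB3 and BNIP3L rose in vehicle by 0.50 and 0.95 and were lower with CBD at 24 h (-0.46 and -0.27). STC2 rose in vehicle by 0.48 and with CBD by 0.28 and was higher with CBD at 3, 6 and 12 h (0.36, 0.32 and 0.30). ADM2 was higher with CBD at 24 h (0.48), and VEGFB, a relative of VEGFA without its hypoxic control, rose by 0.44 in vehicle and 0.47 with CBD. BNIP3L, PFKFB3 and STC2 are also in the list of other HIF targets.

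The 10 genes were summarised as the mean of their standardised log2 values in each sample. This mean ran from -0.32 to -0.13 in vehicle at 3 h and from 1.10 to 1.82 at 24 h, and with CBD from -0.46 to -0.35 and from -0.73 to -0.59. Against the mean of the other genes of the set, Pearson r over 32 samples was highest for BNIP3 (0.94) and lowest for ANKRD37 (0.14). Not all genes shared the course, and over the 16 vehicle samples ADM alone ran against the mean of all 10 (r = -0.51). The 10 genes outside the set that were most like it were IGF2 (0.96), HK2 (0.95), RGS4 (0.95), KIT (0.95), LOXL2 (0.94), GLCCI1 (0.94), CHODL (0.94), SYTL4 (0.94), MAP4K4 (0.94) and PFKFB3 (0.94). Of these, HK2, LOXL2 and PFKFB3 were on the HIF lists. IGF2, an insulin-like growth factor, had mean FPKM of 0.628 and 3.79 in vehicle at 3 and 24 h and 0.624 and 0.719 with CBD. RGS4, a regulator of G protein signalling, had 58.9 and 156 in vehicle and 44.8 and 28.8 with CBD. These coefficients describe time and treatment groups held in common, and over the 16 CBD samples alone none of the 10 was among the 10 closest.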

How the data were processed

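mRNA of SK-N-BE(2) cells was read as single 50-base reads in 32 samples. Per the labels, Trimmomatic version 0.36, TopHat2 version 2.2.1 and Cufflinks were used with the hg19 build, and the authors deposited 1 table of FPKM per gene and sample, not scaled further as far as the sources state. The labels name a Nugen library kit and the methods a TruSEQ kit. The methods also give 2.2.1 as the version of Cufflinks and a different version for TopHat. A table of the authors' own Cuffdiff log2 fold changes and q values was not used.

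Values entered the tests as log2(FPKM + 1), and 12621 of 22610 genes, those averaging 1 FPKM or more, were tested. The 8 groups shared a single linear model, run in limma (version 3.58.1, R 4.3.3, eBayes with trend), with Benjamini-Hochberg adjustment over all genes within each comparison and a threshold of 0.01. In data simulated for vehicle 24 h against 3 h, 94.5% of 200 genes changed by 0.5 (of 12621) were recovered, with 0 false calls. Only these 200 genes were changed there, while 26.6% and 31.1% of the genes tested were called higher and lower in the measured comparison. Recovery with that many changed genes, or with samples of a group that deviate together, was not tested. Standard errors come from the limma fit, and SDs are over 4 samples.

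The genes, gene lists and tests were chosen with earlier results of these data known. Lists were described by counts and medians beside those of all genes. Named genes were all 10 genes, all tested genes of the HIF pathway and of the partners and paralogs, the 3 highest and 3 lowest called HIF targets in each of 3 comparisons, and the 10 genes most like the 10 in Pearson r. Relative depth used 1585 genes above 0 in 2 to 8 samples, which gives ratios only, so counting error is unknown. No 2 samples held identical values. Words of 50 bases were compared among GENCODE version 44 transcripts. Promoter sequences are those of RefSeq on GRCh38.p14, and no coordinates were converted between builds. Alternatives were a pseudocount of 0.1 or 5, an average of 5 FPKM or no minimum, scaling by median ratios, normalization to quantiles, a fit of the groups compared alone, a replicate block, other moderation, other thresholds and each sample left out.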

Additional observations from a re-analysis of the deposited data

Results flagged for a closer look

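Among 80 groups of 4 samples (10 genes in 8 groups), 4 held a sample far from the other 3 by Dixon's criterion, and chance gives about 1 in 20. These were STC1 in vehicle at 12 h with a highest sample of 7.45 FPKM, PFKFB4 with CBD at 12 h with a lowest of 1.37, NDUFA4L2 with CBD at 6 h with a highest of 2.04, and EGLN3 in vehicle at 12 h with a lowest of 6.04.

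STC1 was higher at 24 h than at 3 h in all 4 vehicle samples and lower in all 4 CBD samples, and its log2 change with CBD was -1.65 relative to that in vehicle, a difference that was not tested because the gene was chosen on it.

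Among genes outside the 10, the change from 3 to 24 h differed between the treatments in limma's test of the difference itself (adjusted p under 0.01). With CBD minus vehicle on the log2 scale, the difference was 1.66 for HMOX1, 0.51 for BHLHE41, 0.45 for RORA, 0.79 for SLC2A4 and 0.15 for ARNT. It was -1.16 for NDRG1, -0.97 for LOXL2, -0.93 for FAM162A, -0.47 for PFKFB3, -0.34 for CITED2, -0.33 for BNIP3L, -0.27 for EGLN1, -0.18 for ARNT2 and -0.16 for SLC16A1. The difference of SLC16A1 missed the threshold under quantile normalization (adjusted p = 0.061) and that of ARNT2 with only the groups of the comparison fitted (adjusted p = 0.0108).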

How the results depend on the processing

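The log2 differences of the 10 genes moved by more than the spread between replicates in 68 of 2905 recomputed values, 24 with 0.1 and 36 with 5 added before the logarithm and 8 under quantile normalization. Their sign changed in 11, each with 1 sample left out, in 6 pairs of gene and comparison with a difference of at most 0.07 in size: ANKRD37 (CBD against vehicle at 3 and 6 h, and the difference of the changes), NDUFA4L2 and BNIP3 (CBD against vehicle at 3 h) and EGLN3 (vehicle).

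With an absolute log2 difference of at least 0.5 also required, the other HIF targets called higher and lower were 16 and 0 in vehicle 24 h against 3 h and 11 and 1 with CBD, 0 and 0 for CBD against vehicle at 3 h, 1 and 0 after 6 h, 1 and 3 after 12 h, 2 and 8 after 24 h, and 2 and 9 for the difference of the changes. The glycolytic targets were then 4 higher in vehicle, 0 higher and 5 lower at 24 h, and 6 lower in the difference. The share of all genes tested that met this added requirement is not given here, so nothing is read from these counts. With the groups of a comparison fitted alone, the targets lower at 6 h were 4 instead of 17 and those lower at 3 h 0 instead of 1. That count at 3 h was 2 with 5 added, under median-ratio scaling and under quantile normalization, 3 at a threshold of 0.05, and 1 to 2 with single samples left out (2 without vehicle 24 h replicate 1 or 3, CBD 3 h replicate 4, CBD 12 h replicate 3 or 4, or CBD 24 h replicate 1 or 2). Glycolytic targets called higher in the difference numbered 0, and 1 under quantile normalization, at a threshold of 0.05, and in a range of 0 to 1 with single samples left out (1 without CBD 3 h replicate 1, CBD 12 h replicate 4 or CBD 24 h replicate 2). The cause of these shifts was not tested.

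Same-numbered samples did not deviate together (r from -0.076 to 0.094). This shows no shared deviation by number and cannot tell whether the samples were prepared in pairs. With a replicate block the targets lower at 3 h were 2, the glycolytic targets called higher in the difference were 1, and the other list counts stayed within 1.5 times, with 24 other HIF targets lower at 24 h instead of 23.

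Of the named calls, EP300 at 24 h was lost without the filter (adjusted p = 0.0127) and without vehicle 24 h replicate 2, 3 or 4 or CBD 24 h replicate 1, 3 or 4 (0.014 to 0.0325), VHL at 24 h without vehicle 24 h replicate 2 or 4 or CBD 24 h replicate 2 or 4 (0.015 to 0.0217), CREBBP at 24 h without vehicle 24 h replicate 3 (0.0104), ADM2 in vehicle under quantile normalization (0.197), with 5 added (0.013) and without vehicle 3 h replicate 1 (0.0129) or vehicle 24 h replicate 2 (0.0159), and SLC2A8 in vehicle without any of 10 samples (up to 0.0515 without vehicle 3 h replicate 2). Calls gained at 24 h were EGLN2 with a replicate block (0.00572) and without vehicle 12 h replicate 4, vehicle 24 h replicate 4 or CBD 24 h replicate 3 (0.00473 to 0.00913), NDUFA4 without vehicle 3 h replicate 4 (0.00948) or vehicle 24 h replicate 1 (0.00725), STC2 without CBD 24 h replicate 2 or 4, and RAMP1 (0.00539) and RAMP2 (0.00295) with only the 2 groups fitted. HIF1A and STC2 in the difference of the changes, and HIF1A, HIF1AN and VHL in vehicle, were each gained under 1 to 3 settings.

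Of the 10 genes most like the set, 3 were also among the 10 closest by Spearman's rho, 2 over the 16 vehicle samples and 0 over the 16 CBD samples. With 50 bases after the start included, the promoter letters stood in 6 of 7 genes instead of 5. Over all genes with a window the share was then 52.4%. Depth is known as ratios only, so the counting error of low levels, as for PFKFB4 and NDUFA4L2 at 3 h, is unknown.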
